A study of Mus musculus with 9 samples.

Results

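The 6789 nuclei described here were chosen as non-cycling fibroblast nuclei, by the RNA they held, from 21770 nuclei of the postnatal mouse heart that passed limits on depth and nuclear RNA, out of 33000 barcodes in all. A barcode entered if it held at least 500 unique molecular identifiers (UMIs, each standing for 1 captured RNA molecule) outside the mitochondrially encoded genes, and if Malat1, a long RNA retained in nuclei, made up at least 1.5% of them. It also had to hold at least 4 UMIs summed over 9 fibroblast genes: Abca8a, Kcnt2, Pdgfra, Col1a2, Col3a1, Dcn, Tenm3, Antxr1 and Adamts12. At most 2 UMIs were allowed of the vascular and endocardial genes Flt1, Ptprb, Nrg1, Notch3 and Kcnj8, and at most 1 of the cell-cycle genes Mki67, Top2a, Ect2, Kif15, Knl1, Esco2, Neil3 and Iqgap3. Of 8543 nuclei with 4 or more fibroblast UMIs, 7746 passed the vascular limit, and 957 of these were set aside as cycling. The choice used measured RNA, so the genes of the rule are described and not tested, and the nuclei are called the selected nuclei.

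Nuclear RNA of ventricles from C57BL6/J mice was measured with single-nucleus Drop-seq, which pairs each nucleus with a barcoded bead in a droplet. Control hearts were ERRalphaHet/ERRgammaWT, so that the controls too were heterozygous for ERRα, and they were taken at postnatal day 6 (control P6, 3 libraries) or at postnatal days 9 to 10 (control P10, 3 libraries). Knockout hearts were ERRalphaKO/ERRgammaKO and were taken at postnatal days 9 to 10 (KO P10, 3 libraries). The labels do not say which cells carried a deletion, whether it was conditional, or whether libraries came from separate animals, so that p-values measure the spread between libraries, which may be technical.

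Cardiac fibroblasts make the interstitial matrix between muscle cells: they secrete collagens and glycoproteins, modify and crosslink them, and respond to growth factors through receptors such as PDGFRα. In the first weeks after birth they leave the cell cycle and mature, and in overloaded hearts some take on an activated state marked by α-smooth muscle actin, elastic fibre genes and lysyl oxidases. ERRα and ERRγ, listed as Esrra and Esrrg, are nuclear receptors known for switching on genes of mitochondrial energy metabolism in heart muscle.

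The libraries held 2608067 to 5769630 UMIs in all, and the selected nuclei of a library summed to 327878 to 1378852. A selected nucleus held a median of 817 UMIs (500 to 12992) from 602 genes, with a median of 9 UMIs of the rule's 9 fibroblast genes. KO P10 library 2 shared 465 barcodes with KO P10 library 1, and these were left out of library 2. Another 2 barcodes of selected nuclei occurred in a pair of libraries each. All 3 control P6 libraries, control P10 library 1 and KO P10 library 1 were rich in Xist RNA and the other 4 were not. Mitochondrially encoded genes took 0.845 to 2.68% of the UMIs of selected nuclei at P6, 10.0 to 30.4% in control P10 and 8.14 to 17.6% in KO P10. Esrra, given as CPM (UMIs of a gene scaled to 1e6 UMIs of the selected nuclei of a library), stood at 37.1, 50.7 and 38.3 at P6, 68.4, 57.3 and 48.8 in control P10 and 12.7, 13.97 and 8.03 in KO P10. It was lower in every KO P10 library than in any control library, with a log2 change of -2.31 (SE 0.31, adjusted p = 0.000391). Esrrg stood at 151, 176 and 101 at P6, 816, 524 and 692 in control P10 and 549, 266 and 313 in KO P10, where its log2 change of -0.84 (SE 0.29, adjusted p = 0.110) did not pass the threshold. Where the deletion lies in either gene is not given, so a read outside it checks nothing.

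The fibroblast label was checked against 25 fibroblast markers that the rule did not use, and it held only in part. All 25 were higher in the selected nuclei than in cardiomyocyte nuclei (6811 nuclei with at least 6 UMIs of Ttn, Ryr2, Myh6, Actn2, Ctnna3 and Tnnt2, and at most 1 of the fibroblast and of the vascular genes) in 9 of 9 libraries. Tcf21, a transcription factor of the cardiac fibroblast lineage, was 13.9 times higher on average, the microfibril gene Mfap5 14.1 times and the collagen gene Col1a1 10.4 times. However, only 2476 of the 6789 (36.5%) held more UMIs of the 9 fibroblast genes than of the 6 cardiomyocyte genes. These are called the fibroblast-majority nuclei, a division made after the data were seen. They made up 72.1, 77.0 and 81.5% of the selected nuclei in the control P6 libraries, 32.7, 48.5 and 21.1% in control P10, and 24.4, 6.14 and 26.1% in KO P10, so that the share was higher in every P6 library than in any later one. KO P10 library 2 contributed only 39 of them.

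**Figure D1:**
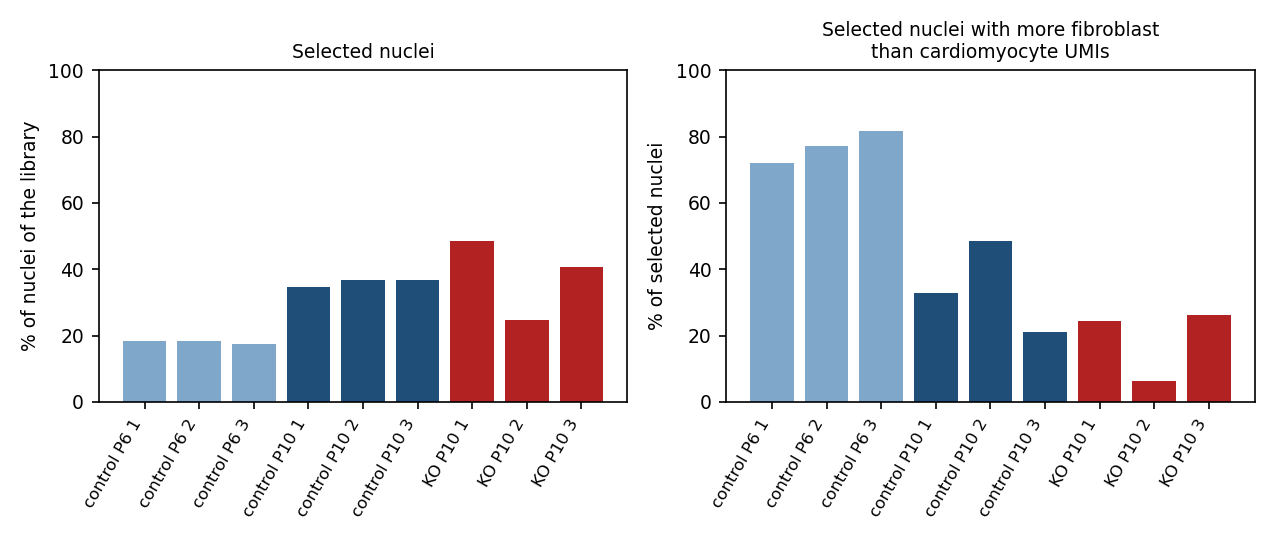
Left, selected nuclei as a percentage of all nuclei of a library that passed the limits; right, nuclei with more UMIs of the fibroblast genes than of the cardiomyocyte genes as a percentage of the selected nuclei. Each bar is 1 library, coloured by group, with no error bar; the bars on the right are 72.1 to 81.5% at P6, 21.1 to 48.5% in control P10 and 6.14 to 26.1% in KO P10.

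Cardiomyocyte RNA in the selected nuclei was higher in every later library than in any P6 library, and control P10 and KO P10 overlapped. Summed over 18 cardiomyocyte markers, the selected nuclei held 20239 to 27239 CPM at P6, 45866 to 58072 in control P10 and 53006 to 70936 in KO P10, against 65884 to 90353 over all libraries in cardiomyocyte nuclei. In the fibroblast-majority nuclei the same sum was 11336 to 12468, 16906 to 23124 and 21019 to 25670 CPM. The 25 fibroblast markers summed to 15272 to 17837, 12637 to 16388 and 11450 to 13492 CPM in the selected nuclei, and to 19356 to 22104, 24796 to 27838 and 24054 to 27097 in the fibroblast-majority nuclei. Every marker of both lists had UMIs. The part that cardiomyocyte RNA played in each difference was not tested by itself, and therefore each named gene is given in all selected nuclei and, where it matters, in the fibroblast-majority nuclei too. At the edge of the rule, the 1467 nuclei with 3 fibroblast UMIs (just outside it) held 4.61% of their UMIs in the 6 cardiomyocyte genes and 0.0300% in Col1a1, and the 1001 nuclei with 4 (just inside) held 4.31% and 0.0372%.

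Sums of other marker lists in the selected nuclei were as follows, and some differed between groups. The 13 epicardial markers summed to 561 to 965 CPM at P6, 217 to 335 in control P10 and 175 to 231 in KO P10. Macrophage markers (12 genes) summed to 120 to 183, 358 to 406 and 295 to 392 CPM, and pericyte and smooth muscle markers (13 genes, Notch3 and Kcnj8 of the rule among them) to 766 to 906, 1267 to 1670 and 1854 to 2439. Erythroid markers (7 genes, chiefly globins) summed to 1849 to 2483, 2460 to 3776 and 4461 to 17399 CPM. In KO P10 library 2 the erythroid sum exceeded that of the fibroblast markers (17399 against 11450.1). Ribosomal protein genes, whose messenger RNA is abundant in cytoplasm, summed to 12804 to 18858 CPM at P6, 4193 to 8883 in control P10 and 10895 to 13438 in KO P10, lowest in control P10 with no overlap in either comparison. They summed in the fibroblast-majority nuclei to 12729 to 19985, 4729 to 8989 and 9053 to 13223 CPM. The part of these sums in the changes of single genes was not tested.

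The genes of the rule varied from library to library. Abca8a, an ABC transporter gene, stood at 831, 831 and 927 CPM at P6, 869, 704 and 657 in control P10 and 557, 687 and 459.9 in KO P10. Pdgfra, the receptor that marks resident fibroblasts, stood at 210.1, 197 and 169, 192, 181 and 95.2 CPM in control P10 and 171, 135 and 157 in KO P10. Col3a1, the chain of type III collagen, stood at 6377, 6283 and 8672, 2946, 5712 and 3495 CPM in control P10 and 3941, 2332 and 5019.9 in KO P10, all 3 P6 libraries above the 6 later ones. The proteoglycan gene Dcn stood at 2765, 2759.6 and 3384, 2322, 3012 and 2205 CPM in control P10 and 1688, 1113 and 1967 in KO P10, lowest in KO P10 library 2, the library with the fewest fibroblast-majority nuclei.

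The fibroblast-majority nuclei divided into 6 sub-clusters, described here by their leading genes with no test. Sub-cluster 1 (1034 nuclei) was led by Tenm4, Abca8a and Fap, and sub-cluster 4 (569 nuclei) by the secreted factor gene Ptn with Col1a1, Col3a1 and the imprinted gene Mest. Sub-cluster 2 (289 nuclei) was led by the elastin gene Eln with Sfrp2, Itgbl1, Col12a1 and Ctgf. Sub-cluster 3 (460 nuclei) was led by Cmah, Pi16, Sema3c, Cd248, Clec3b and Scara5, several of which mark adventitial fibroblasts. The other 2 were small: an endocardial-like sub-cluster 5 (64 nuclei; Emcn, Npr3, Vwf) and an epicardial-like sub-cluster 6 (60 nuclei; C3, Msln, Upk3b, Lrrn4), of which 44 nuclei came from P6, 15 from control P10 and 1 from KO P10.

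Selected nuclei were a larger share of all nuclei at P10 than at P6 in every control library, and KO P10 libraries spread widely around the control. This share was 18.4, 18.4 and 17.6% at P6, 34.6, 36.7 and 36.6% in control P10 and 48.4, 24.8 and 40.7% in KO P10. The P6 and control P10 libraries did not overlap, and the difference of 17.9 percentage points had p = 0.10 in a two-sided exact permutation test, the smallest value that 3 against 3 libraries allow. In nuclei thinned to 500 UMIs each, the shares were 16.4, 16.4 and 17.6%, then 26.4, 29.7 and 25.4%, then 38.4, 15.7 and 32.8%, a difference of 10.4 points between the control ages (exact permutation p = 0.10). KO P10 exceeded control P10 by 2.00 points on average, with library 2 below and libraries 1 and 3 above every control library (exact permutation p = 0.80). Of the fibroblast nuclei including the cycling ones, 8.84, 22.9 and 21.5% were cycling at P6, 7.16, 12.3 and 9.99% in control P10 and 15.9, 0.936 and 12.8% in KO P10, and all 3 groups overlapped. The exact permutation p was 0.30 for control P10 against P6 and 1.0 for KO P10 against control P10. Fibroblast-majority nuclei numbered 238 of 1796, 332 of 2347 and 318 of 2219 nuclei in the P6 libraries. In control P10 they numbered 174 of 1539, 617 of 3462 and 265 of 3421, so that their share of all nuclei overlapped between the ages. The remaining selected nuclei numbered 92, 99 and 72 at P6 and 358, 654 and 988 in control P10. The selected nuclei of control P10 held more cardiomyocyte RNA than those of P6, so that more fibroblast nuclei and more fibroblast RNA shared between barcodes cannot be told apart here.

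From day 6 to days 9 to 10 in control hearts, the selected nuclei held less RNA of the imprinted genes Meg3, Mirg and Mest, of the collagen-processing genes Loxl2 and P3h1 and of the glycoprotein genes Fmod and Tnc, and more RNA of Cmah and Hmcn2. Of the lists these genes belong to, 5 of 22 fetal and imprinted, 7 of 24 collagen processing and 9 of 32 glycoprotein genes fell. Counts summed per library and fitted with edgeR gave 1771 of 10009 tested genes at an adjusted p under 0.05 (17.7%), 906 higher (9.05%) and 865 lower (8.64%) at P10, with a median log2 change of -0.02 over all genes. Among the fibroblast-majority nuclei 656 of 5548 genes passed (11.8%), 311 higher (5.61%) and 345 lower (6.22%). Among 804 genes that were at least 3 times higher in selected than in cardiomyocyte nuclei, fitted with their own totals, 103 passed (12.8%), 63 higher (7.84%) and 40 lower (4.98%). Leaving out control P6 library 3 reduced the count in the selected nuclei from 1771 to 754, control P6 library 2 to 872 and control P10 library 3 to 908. Groups that do not overlap were common here: all 3 libraries of one age lay above the other for 35.9% of genes. The largest rises and falls named below were chosen with that separation as a condition, so it adds nothing to their calls.

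Among the genes that lay at least 2-fold above their cardiomyocyte level, Cmah, which encodes the enzyme that converts the sialic acid Neu5Ac to Neu5Gc, had the largest rise. Its level was 15.4, 10.1 and 16.4 CPM at P6 and 103, 69.04 and 90.2 at P10, a log2 change of 2.64 (SE 0.35, adjusted p = 0.000134), and no P10 library came near the P6 range. Its fibroblast-majority levels were 29.3, 3.66 and 27.00 and 199, 138 and 265 CPM. The gene lies at chr13:24327404-24477377 (GRCm38, plus strand). In these nuclei 138 of its UMIs fell in sub-cluster 3, where its pooled level was 64.8 CPM at P6 and 563 in control P10.

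Hmcn2 encodes hemicentin-2, a very long extracellular matrix protein of immunoglobulin-like repeats, and lies at chr2:31314415-31460738 (GRCm38, plus strand). It stood at 46.3, 30.4 and 27.3 CPM at P6 and 160.2, 158 and 133 at P10, a log2 change of 2.13 (SE 0.31, adjusted p = 0.000236). Every P10 library was far above every P6 library, and in the fibroblast-majority nuclei the levels were 82.2, 40.3 and 45.00 and 337, 366 and 363 CPM. The rise was spread over the large sub-clusters: pooled over libraries, Hmcn2 went from 24.6 to 195 CPM in sub-cluster 1, from 43.2 to 256 in sub-cluster 2, from 122 to 549 in sub-cluster 3 and from 41.5 to 299 in sub-cluster 4.

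Ntrk3, the receptor for neurotrophin-3 (chr7:78175959-78738012), stood at 46.3, 20.3 and 51.9 CPM at P6 and 145, 89.6 and 82.8 at P10, a log2 change of 1.43 (SE 0.33, adjusted p = 0.00674) that was lost without control P6 library 2 (adjusted p = 0.0611). The endocytic adaptor gene Ston2 (chr12:91633009-91788387) stood at 43.3, 24.3 and 21.9 CPM at P6 and 139, 76.4 and 97.6 at P10, a log2 change of 1.80 (SE 0.33, adjusted p = 0.00128). Both ages were clear of each other for these genes, as their choice required. The changes in fibroblast-majority nuclei were 2.01 for Ntrk3 and 2.31 for Ston2. The carbonic anhydrase-related gene Car8 had a log2 change of 1.42 (SE 0.28, adjusted p = 0.00228) and Calcrl, a receptor subunit for adrenomedullin and CGRP, a log2 change of 1.40 (SE 0.28, adjusted p = 0.00232). Maf, a transcription factor that also marks macrophages, had a log2 change of 1.64 (SE 0.33, adjusted p = 0.00267) in the selected nuclei and 0.70 (adjusted p = 0.318) in the fibroblast-majority nuclei. The remaining 5 of the 12 largest rises were Camk1d, Entpd1, Colgalt2, Prex2 and Elmo1, with log2 changes of 1.28 to 1.71. Camk1d lost its call without control P6 library 3 (adjusted p = 0.0692) and Entpd1 without control P6 library 2 or 3 (highest adjusted p 0.109). Colgalt2, Prex2 and Elmo1 lost theirs without control P10 library 3 or the second or the third P6 library, with highest adjusted p of 0.164, 0.149 and 0.104. Colgalt2 also missed the threshold in the fibroblast-majority nuclei without the epicardial-like and endocardial-like sub-clusters (adjusted p = 0.0587).

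The largest fall was that of Meg3, a maternally expressed long noncoding RNA (chr12:109541001-109571726). It stood at 198, 176 and 150.4 CPM at P6 and 6.41, 15.4 and 7.45 at P10, a log2 change of -4.02 (SE 0.34, adjusted p = 3.37e-06), and the fall in fibroblast-majority nuclei was of similar size (-3.37). Mirg, a neighbouring transcript of the same imprinted cluster, stood at 86.5, 87.1 and 101 CPM at P6 and 21.4, 26.4 and 18.2 at P10, a log2 change of -2.03 (SE 0.29, adjusted p = 0.000222). The imprinted genes Mest and H19 also fell: Mest from 365, 363 and 549 to 147, 245 and 119.99 CPM, a log2 change of -1.30 (SE 0.29, adjusted p = 0.00543), and H19 from 581, 788 and 744 to 369.5, 357 and 189 CPM, a log2 change of -1.21 (SE 0.34, adjusted p = 0.0181) lost without control P10 library 3 or the second or the third P6 library (highest adjusted p 0.110). Of 22 tested genes of fetal growth and imprinting, 5 fell (H19, Mest, Meg3, Mirg and Igf2bp1) and 0 rose by edgeR, with a median of -0.59. The fibroblast-majority nuclei had 4 of 17 lower. Over all genes 8.64% fell in the selected and 6.22% in the fibroblast-majority nuclei.

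**Figure D2:**
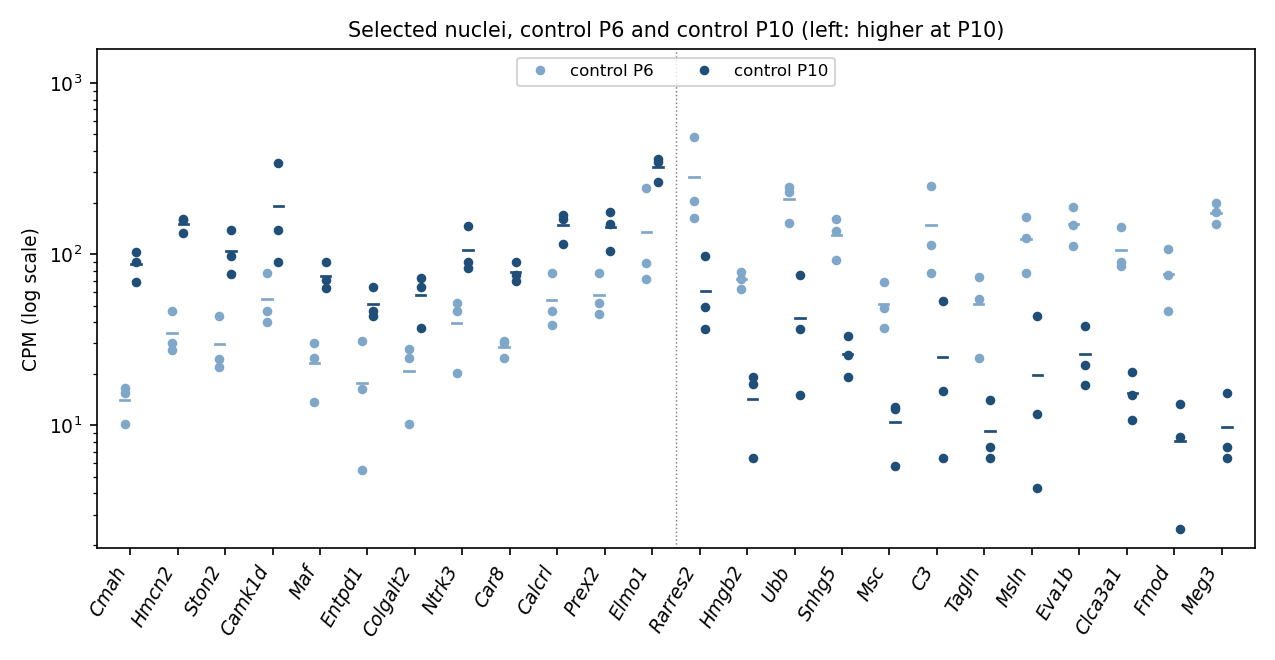
CPM of the selected nuclei (log axis) for the 12 fibroblast-side genes that rose most (left of the dotted line) and the 12 that fell most (right) from control P6 to control P10. Each point is 1 library and each short line a group mean of 3; the groups are separate for every gene because the choice of genes required it, and Cmah, Hmcn2, Fmod and Meg3 are the farthest apart.

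Further falls among fibroblast-side genes included those of secreted and matrix proteins. Fmod, which encodes the collagen-binding proteoglycan fibromodulin (chr1:134037254-134048277), stood at 46.3, 74.97 and 107 CPM at P6 and 8.54, 13.2 and 2.48 at P10, a log2 change of -3.20 (SE 0.46, adjusted p = 0.000230). Rarres2, which encodes the chemoattractant chemerin (chr6:48569696-48572789), stood at 204, 162 and 484 CPM at P6 and 36.3, 96.96 and 48.8 at P10, a log2 change of -2.15 (SE 0.39, adjusted p = 0.00116). Eva1b, a membrane protein gene (chr4:126147744-126149875), stood at 111, 148 and 189 CPM at P6 and 17.1, 38.2 and 22.3 at P10, a log2 change of -2.44 (SE 0.30, adjusted p = 8.87e-05). P6 libraries were above the P10 libraries for all 3, as their choice required, although Fmod and Rarres2 varied by more than 2-fold within each age. Without the epicardial-like and endocardial-like sub-clusters the change of Rarres2 in the fibroblast-majority nuclei went from -1.91 to -1.22 (adjusted p = 0.0377).

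The mesothelial gene Msln stood at 77.2, 124 and 164 CPM at P6 and 4.27, 43.3 and 11.6 at P10, a log2 change of -2.42 (SE 0.47, adjusted p = 0.00189). The complement gene C3 stood at 77.2, 113 and 252 CPM at P6 and 6.41, 52.9 and 15.7 at P10, a log2 change of -2.37 (SE 0.50, adjusted p = 0.00349) lost without control P6 library 3 (adjusted p = 0.0561). C3, Msln and Fmod were leading genes of the epicardial-like sub-cluster, which held 152 C3 UMIs at P6, 34 in control P10 and 2 in KO P10 at a pooled 3155 CPM, and without that and the endocardial-like sub-cluster they were too low to be tested. Of the 10 tested epicardial markers, 5 fell (Upk3b, Upk1b, Msln, Lrrn4 and Tbx18; 8.64% over all genes), with a median of -1.26. Whether the share of epicardial-like nuclei changed the levels of C3 and Fmod was not tested. Clca3a1, the smooth muscle actin-binding gene Tagln, the transcription factor gene Msc, Snhg5, the ubiquitin gene Ubb and Hmgb2, a chromatin protein abundant in dividing cells, fell by 2.16 to 2.77 on the log2 scale and completed the 12 largest falls.

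Matrix genes showed more falls than rises, beside 9.05% higher and 8.64% lower over all genes in the selected nuclei. In the fibroblast-majority nuclei 5.61% of all genes rose and 6.22% fell. Of 10 tested fibrillar and associated collagens outside the rule, 4 fell (Col1a1, Col11a1, Col12a1 and Col24a1) and 0 rose, with a median of -0.70. There were 2 falls among 10 in the fibroblast-majority nuclei (Col11a1 and Col12a1). Col11a1 stood at 61.8, 64.8 and 82.01 CPM at P6 and 29.9, 16.2 and 7.45 at P10, a log2 change of -2.14 (SE 0.39, adjusted p = 0.00133). Col1a1, the main chain of type I collagen, stood at 2126, 2198 and 3021 CPM at P6 and 1064, 1638 and 1041 at P10. Its log2 change of -0.97 (SE 0.30, adjusted p = 0.0289) was lost without the second or the third P6 library, or the first or the third of control P10, (highest adjusted p 0.144) and did not pass in the fibroblast-majority nuclei (-0.56, adjusted p = 0.206).

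Of 24 tested enzymes and chaperones that process collagen 7 fell (Loxl2, P3h1, P3h3, Pcolce, Ppib, Fkbp10 and Crtap) and 0 rose, with a median of -0.57. There were 4 falls among 21 in the fibroblast-majority nuclei (Loxl2, P3h1, Pcolce and Ppib). Over all genes 8.64% fell in the selected and 6.22% in the fibroblast-majority nuclei. Loxl2, a lysyl oxidase-like crosslinking enzyme, stood at 433, 691 and 831 CPM at P6 and 229, 329 and 197 at P10, a log2 change of -1.37 (SE 0.28, adjusted p = 0.00254). P3h1, a prolyl 3-hydroxylase that acts with Crtap and Ppib in the endoplasmic reticulum, stood at 95.8, 122 and 131 CPM at P6 and 42.7, 52.9 and 37.2 at P10, a log2 change of -1.38 (SE 0.25, adjusted p = 0.00131). The ages did not overlap for either gene.

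Of 32 tested proteoglycans and matrix glycoproteins 9 fell and 0 rose (median -0.54), against 2 of 27 in the fibroblast-majority nuclei, where Cilp rose. Over all genes 8.64% fell in the selected and 6.22% in the fibroblast-majority nuclei, so that 2 of 27 is near the share of all genes. Tnc, which encodes the developmental glycoprotein tenascin-C, stood at 299.7, 367 and 273 CPM at P6 and 124, 113 and 58.8 at P10, a log2 change of -1.69 (SE 0.35, adjusted p = 0.00304), and passed in both sets. The fibronectin gene Fn1 had a log2 change of -1.20 (SE 0.28, adjusted p = 0.00698) that was lost without control P10 library 3 (adjusted p = 0.0600). Of 15 elastic fibre genes 3 fell (Efemp2, Mfap2 and Emilin1) and Ltbp1 rose, and the same 3 fell in the fibroblast-majority nuclei. Mfap2, a microfibril glycoprotein, stood at 235, 415 and 353 CPM at P6 and 38.4, 120.5 and 68.7 at P10, a log2 change of -2.08 (SE 0.33, adjusted p = 0.000544), and its later libraries were all under the P6 range. Of 24 basement membrane and network matrix genes 0 fell and Col4a4 rose, with a median of 0.06, and in the fibroblast-majority nuclei Col4a4, Col8a1 and Col15a1 rose. For the lists of the preceding sentences with 0 edgeR calls in 1 direction and for the fetal and imprinted genes, DESeq2 also had 0 in that direction, and members with an unadjusted p under 0.05 in that direction numbered 0 (collagens, higher), 2 (collagen processing, higher), 3 (glycoproteins, higher), 1 (fetal and imprinted genes, higher) and 1 (basement membrane, lower).

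Transcription factors and hormone receptors had more rises than falls, beside 9.05% higher and 8.64% lower over all genes (5.61% and 6.22% in the fibroblast-majority nuclei). Of 56 tested transcription factors of mesenchyme 13 rose and 3 fell (Tcf21, Tbx18 and Twist2), with a median of 0.48. Of 46 in the fibroblast-majority nuclei 10 rose (among them Zeb1, Pbx3, Klf9, Foxo1, Ebf1, Ebf2, Nfia, Sox5 and Mecom) and Tcf21 fell. Tcf21 stood at 182, 269 and 282 CPM at P6 and 76.9, 125 and 51.3 at P10, a log2 change of -1.52 (SE 0.33, adjusted p = 0.00378), and its change in the fibroblast-majority nuclei was -0.90 (adjusted p = 0.0427). Of 34 nuclear receptors and hormone response genes 11 rose, among them Esrrg, Thrb (a thyroid hormone receptor) and Rora, while the fasting-induced gene Angptl4 fell. In the fibroblast-majority nuclei 4 of 17 rose, Esrrg, Thrb and Rora among them. The other 8 of the 11 (Rxrg, Nr3c2, Ppara, Ppargc1a, Ppargc1b, Tsc22d3, Pdk4 and Ghr) did not pass or were too low to be tested in the fibroblast-majority nuclei. Among the genes at least 3 times higher in selected than in cardiomyocyte nuclei, only 2 of this list were tested and 0 passed. The part of cardiomyocyte RNA in the rises of this list was not tested.

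Genes of resting and adventitial fibroblasts split by direction, beside 9.05% higher and 8.64% lower over all genes (5.61% and 6.22% in the fibroblast-majority nuclei). Of 19 tested, Pi16, Cxcl12 and Lpl rose and C3, Sfrp2 and Mgst1 fell (median -0.16). Of 14 in the fibroblast-majority nuclei Pi16, the actin-severing gene Gsn and the scavenger receptor gene Scara5 rose and C3 and Sfrp2 fell. Pi16 had a log2 change of 1.20 (SE 0.38, adjusted p = 0.0367) in the selected nuclei, lost without the second or the third P6 library or control P10 library 2 (highest adjusted p 0.201), and a log2 change of 1.90 (SE 0.37, adjusted p = 0.00142) in the fibroblast-majority nuclei. Sema3c, a secreted guidance factor and a leading gene of sub-cluster 3, stood at 256, 203 and 252 CPM at P6 and 519, 441 and 362 at P10 with no overlap, a log2 change of 0.89 (SE 0.25, adjusted p = 0.0206) in the selected and a log2 change of 1.38 (SE 0.26, adjusted p = 0.00110) in the fibroblast-majority nuclei. The call in the selected nuclei was lost without the second or the third P6 library or control P10 library 1 (highest adjusted p 0.115). Of 25 myofibroblast and activation genes 3 rose (Acta2, Palld and Mkl1; 9.05% over all genes) and 5 fell (Tagln, Fn1, Tnc, Cyr61 and Thbs1; 8.64% over all genes).

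Among genes that were not 2-fold above their level in cardiomyocyte nuclei, the largest rises were those of Mylk4 (3.45), a myosin light chain kinase of heart muscle, the potassium channel gene Kcnd2 (3.27), Lrrc3b (3.14) and Pdzrn4 (2.83). Ttn, the sarcomere's titin, stood at 3204, 2932 and 1482 CPM at P6 and 12526, 7045 and 13552 at P10, a log2 change of 2.12 (SE 0.43, adjusted p = 0.00270). Of the 18 cardiomyocyte markers 10 rose (9.05% over all genes) and 0 fell, with a median of 1.13. In the fibroblast-majority nuclei 7 of the 18 rose, so that the division lowered the summed level of cardiomyocyte RNA without removing its difference between ages.

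The change with age was compared with that in cardiomyocyte nuclei of the same libraries, with an interaction term and a block for the library. Of 11818 genes, 594 changed differently (5.03%), 412 more upward (3.49%) and 182 more downward (1.54%) in the selected nuclei. Hmcn2 rose further than in cardiomyocyte nuclei, by 2.20 on the log2 scale (adjusted p = 0.000594), and Eva1b fell further, with a difference of -2.00 (adjusted p = 0.0180). By the same term the rises of Cmah (adjusted p = 0.510), Ston2 (0.419), Ntrk3 (0.341), Car8 (0.961), Maf (0.980) and Calcrl (0.414) did not pass. Neither did those of Camk1d (0.860), Entpd1 (0.934) and Colgalt2 (0.615). Mean Calcrl in cardiomyocyte nuclei went from 17.1 CPM at P6 to 69.7 in control P10. Of the 25 fibroblast markers outside the rule 17 changed more downward than in cardiomyocyte nuclei, and 18 of 18 cardiomyocyte markers changed more upward. So did 25 of 60 respiratory chain genes. The 18 markers include Ttn, Ryr2, Myh6, Actn2, Ctnna3 and Tnnt2, by which the cardiomyocyte nuclei were chosen. Those nuclei also held at most 1 UMI of the rule's fibroblast genes. Both marker counts therefore describe nuclei chosen by such RNA and are no independent support. The summed fibroblast markers themselves were higher at P10 in the cardiomyocyte nuclei, at 3110.04 to 3666 CPM against 1548 to 1738 at P6. The part of such shared RNA in the interaction was not tested. Against 581 endothelial nuclei, few enough that only 7800 genes could be tested, 12 genes differed (0.154%), 9 more upward (0.115%) and 3 more downward (0.0385%). The 9 that changed more upward in the selected nuclei, Kitl, Rgs5, Btnl9, Cd36, Gpihbp1, Pcdh17, Adgrl4, Arhgap18 and Fabp4, include several endothelial genes, and the 3 that changed more downward were Col1a1, Inhba and Ptn.

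Between KO P10 and control P10, the selected nuclei of the knockout held less RNA of the late-rising genes Hmcn2, Cmah, Ntrk3 and Sema3c and of 6 of 19 resting and adventitial fibroblast genes (2 rose), and more RNA of the activation genes Ctgf and Myl9 and of the signalling inhibitors Smad6 and Sfrp2. By edgeR 528 of 10009 genes passed (5.28%), 269 higher (2.69%) and 259 lower (2.59%). Within the fibroblast-majority set 60 of 5548 passed (1.08%), 32 higher (0.577%) and 28 lower (0.505%), and of the 804 fibroblast-enriched genes 81 passed (10.1%), 45 higher (5.60%) and 36 lower (4.48%). The 3 libraries of one group lay above the other for 23.3% of genes. That separation was again a condition for the largest rises and falls named below. The count of 528 fell to 173 without control P10 library 3, to 249 without KO P10 library 3 and to 283 without KO P10 library 2, and rose to 727 without KO P10 library 1. Nuclei with at most 4 cardiomyocyte UMIs, for which KO P10 library 2 could not be used, gave 1 gene, Nppa. They were few: 62, 103 and 18 in the control P10 libraries and 30 and 26 in KO P10 libraries 1 and 3. A count from so few nuclei cannot show whether other genes changed in them. The P6 and KO P10 libraries are both compared with the same control P10 libraries, so that genes named in both comparisons share those 3 libraries and their values are given side by side only.

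Hmcn2 fell further than any other fibroblast-side gene. It stood at 160.2, 158 and 133 CPM in control P10 and 13.7, 3.49 and 11.5 in KO P10, a log2 change of -3.84 (SE 0.33, adjusted p = 3.96e-06), and the KO P10 levels were also under the 46.3, 30.4 and 27.3 CPM of P6. Its fibroblast-majority levels were 337, 366 and 363 CPM in control P10, 18.4 and 19.4 in KO P10 libraries 1 and 3, and 0 of 33802 UMIs in library 2, which allows up to 88.8 CPM. In KO P10 the pooled sub-clusters 1, 2, 3 and 4 held 0, 1, 3 and 2 UMIs of Hmcn2, where 0 of 159046 UMIs in sub-cluster 1 allows up to 18.9 CPM, both limits covering counting error only. In control P10 the same sub-clusters held 71, 28, 125 and 61.

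Cmah stood at 103, 69.04 and 90.2 CPM in control P10 and 17.6, 17.5 and 11.5 in KO P10, a log2 change of -2.46 (SE 0.29, adjusted p = 0.000218), and the KO P10 range overlapped that of P6. Ntrk3 stood at 145, 89.6 and 82.8 CPM in control P10 and 22.5, 20.96 and 17.2 in KO P10, a log2 change of -2.34 (SE 0.32, adjusted p = 0.000426). Sema3c (chr5:17574281-17730268) stood at 519, 441 and 362 CPM in control P10 and 121, 71.6 and 126 in KO P10, a log2 change of -2.03 (SE 0.26, adjusted p = 0.000317). For all 3 the KO P10 libraries lay under every control P10 library, as their choice required. The calls held in the fibroblast-majority nuclei, with log2 changes of -3.07 (Cmah), -2.20 (Ntrk3) and -1.79 (Sema3c).

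Fap, which encodes the membrane protease fibroblast activation protein (chr2:62500943-62574075), stood at 279.8, 87.4 and 166 CPM in control P10 and 38.2, 26.2 and 28.7 in KO P10, a log2 change of -2.45 (SE 0.37, adjusted p = 0.000791), and did not pass in the fibroblast-majority nuclei (-1.78, adjusted p = 0.0645). Clec3b, which encodes the plasminogen-binding protein tetranectin (chr9:123150946-123157432), stood at 135, 175 and 86.9 CPM in control P10 and 35.2, 12.2 and 35.6 in KO P10, a log2 change of -2.19 (SE 0.36, adjusted p = 0.00168). Adamtsl3, a secreted ADAMTS-like matrix protein gene (chr7:82335694-82614450), stood at 427, 154 and 230.1 CPM in control P10 and 105, 29.7 and 35.6 in KO P10, a log2 change of -2.17 (SE 0.41, adjusted p = 0.00401). Groups were separate for these 3 genes, as their choice required, while Fap and Adamtsl3 varied about 3-fold among the control libraries. Lsamp, a GPI-anchored adhesion molecule, stood at 348, 110.2 and 217 CPM in control P10 and 61.6, 50.7 and 42.4 in KO P10, a log2 change of -2.08 (SE 0.36, adjusted p = 0.00218). The last 4 of the 12 largest falls were Colgalt2, Nov, Nhsl1 and Adgrd1, with log2 changes of -1.80 to -1.95. Colgalt2 lost its call without control P10 library 3 (adjusted p = 0.0750) and Nov, which encodes the matricellular protein CCN3, without control P10 library 2 (adjusted p = 0.0602).

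Smad6, which encodes an inhibitory SMAD of BMP and TGF-β signalling (chr9:63953076-64022059), stood at 27.8, 41.9 and 25.7 CPM in control P10 and 104, 128 and 81.4 in KO P10, a log2 change of 1.67 (SE 0.29, adjusted p = 0.00242) in the selected and a log2 change of 1.88 (SE 0.38, adjusted p = 0.00852) in the fibroblast-majority nuclei. Sfrp2, a secreted modulator of Wnt signalling (chr3:83766321-83774316), stood at 53.4, 41.1 and 31.4 CPM in control P10 and 109, 136 and 143 in KO P10, a log2 change of 1.66 (SE 0.25, adjusted p = 0.000791), and its P6 levels were 117, 99.3 and 115. Edn1, which encodes the vasoconstrictor peptide endothelin-1, stood at 36.3, 25.7 and 17.4 CPM in control P10 and 86.1, 99.6 and 86.02 in KO P10, a log2 change of 1.85 (SE 0.35, adjusted p = 0.00485). In all 3 every KO P10 library was above every control P10 library, as their choice required. Edn1, which endothelial cells also make, passed in the fibroblast-majority nuclei (2.08, adjusted p = 0.0396) but not without their endocardial-like and epicardial-like sub-clusters (1.81, adjusted p = 0.135). Sfrp2 was higher in KO P10 in the pooled sub-clusters 1 (46.7 against 176 CPM), 2 (109.6 against 475), 3 (13.2 against 265) and 4 (122 against 193). Its levels in sub-cluster 3 rest on few UMIs pooled over libraries, so that the size of that contrast is imprecise.

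Fmo2, a flavin-containing monooxygenase gene (chr1:162874317-162898726), stood at 14.95, 11.02 and 9.93 CPM in control P10 and 31.3, 355 and 36.7 in KO P10, a log2 change of 3.54 (SE 0.72, adjusted p = 0.00717), and KO P10 library 2 was about 10-fold above the other KO P10 libraries. Lox, which encodes the lysyl oxidase that crosslinks collagen and elastin, stood at 49.1, 91.1 and 30.6 CPM in control P10 and 91.96, 398 and 196 in KO P10. Its log2 change of 1.95 (SE 0.43, adjusted p = 0.0110) was lost without KO P10 library 2 or control P10 library 3 (highest adjusted p 0.0750). Fstl3, a secreted binder of activins, stood at 4.27, 20.6 and 11.6 CPM in control P10 and 33.3, 73.4 and 55.05 in KO P10, a log2 change of 1.91 (SE 0.39, adjusted p = 0.00676), and did not pass in the fibroblast-majority nuclei (adjusted p = 0.156). The matricellular gene Thbs4 stood at 6.41, 22.8 and 9.93 CPM in control P10 and 47.9, 80.4 and 63.1 in KO P10, a log2 change of 2.10 (SE 0.37, adjusted p = 0.00244). The other rises among the first 12 were Myl4, Bnip3, Casq1, Ltbp2 and Gpr39, with log2 changes of 1.61 to 2.11. Myl4 and Casq1 are muscle genes, and fibroblast-side marks only their ratio to the cardiomyocyte nuclei of KO P10. In the fibroblast-majority nuclei Myl4 did not pass. Casq1 (without KO P10 library 2, adjusted p = 0.0838), Ltbp2 (without KO P10 library 2 or control P10 library 3, highest 0.0761) and Gpr39 (without either of the same libraries, highest 0.0750) lost their calls.

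**Figure D3:**
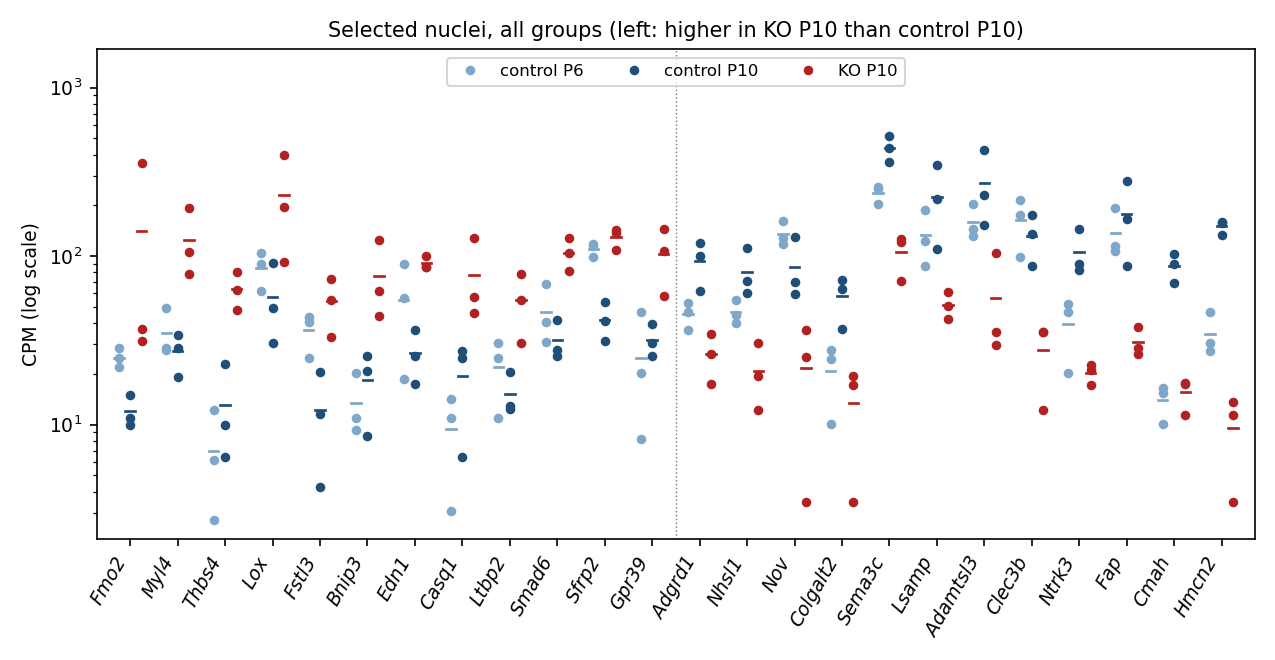
CPM of the selected nuclei (log axis) for the 12 fibroblast-side genes that rose most (left of the dotted line) and the 12 that fell most (right) in KO P10 against control P10, with control P6 shown beside them. Each point is 1 library and each short line a group mean of 3; control P10 and KO P10 are separate by the choice of genes, KO P10 library 2 is the high point of Fmo2 and Lox, and Hmcn2 in KO P10 lies under its P6 level.

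Promoters of 4 of these genes are printed because ERR proteins are known to bind the half-site AGGTCA. Hmcn2 and Cmah were taken as the largest falls called in the selected nuclei, the fibroblast-majority nuclei and the fibroblast-enriched genes. Lsamp and Fstl3 were added because their promoters hold those letters, so that their matches were fixed by the choice. Each is the 250 bases before the start of the gene's first listed RefSeq entry (GRCm38.p6, plus strand, 5′ to 3′), with capitals marking AGGTCA or its reverse complement TGACCT. Hmcn2 (chr2:31314082-31314331) and Cmah (chr13:24327154-24327403) fell, Lsamp (chr16:39984114-39984363) fell and Fstl3 (chr10:79777024-79777273) rose in KO P10.
Hmcn2: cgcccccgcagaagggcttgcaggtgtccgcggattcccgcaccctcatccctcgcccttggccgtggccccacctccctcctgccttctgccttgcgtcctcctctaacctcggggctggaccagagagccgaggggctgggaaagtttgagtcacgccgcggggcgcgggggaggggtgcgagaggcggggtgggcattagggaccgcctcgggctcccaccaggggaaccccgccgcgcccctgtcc
Cmah: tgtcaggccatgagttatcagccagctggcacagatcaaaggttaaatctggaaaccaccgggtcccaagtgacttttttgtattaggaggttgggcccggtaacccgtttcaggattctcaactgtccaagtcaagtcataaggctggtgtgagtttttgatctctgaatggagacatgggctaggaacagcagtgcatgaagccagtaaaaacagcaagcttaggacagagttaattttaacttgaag
Lsamp: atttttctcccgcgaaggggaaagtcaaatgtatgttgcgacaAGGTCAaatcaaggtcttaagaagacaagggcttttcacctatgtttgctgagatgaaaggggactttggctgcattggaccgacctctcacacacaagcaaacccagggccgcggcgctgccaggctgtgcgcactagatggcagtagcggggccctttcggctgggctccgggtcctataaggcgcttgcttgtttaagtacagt
Fstl3: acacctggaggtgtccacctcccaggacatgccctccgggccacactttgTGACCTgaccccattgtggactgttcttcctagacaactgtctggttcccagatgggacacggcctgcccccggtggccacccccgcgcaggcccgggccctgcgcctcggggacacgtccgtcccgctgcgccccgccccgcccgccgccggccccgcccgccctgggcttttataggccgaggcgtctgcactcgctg
Lsamp held AGGTCA from 207 to 202 bases before its start and Fstl3 held TGACCT from 200 to 195 bases before, while the windows of Hmcn2 and Cmah held neither. Of the named fibroblast-side genes with a RefSeq promoter, 1 of 6 that fell (Lsamp) and 1 of 11 that rose (Fstl3) in KO P10 had a match on either strand, against 3740 of 27025 genes (13.8%). The extended site TNAAGGTCA, which contains AGGTCA, was in 0 of either set and in 308 of 27025 genes (1.14%). A match describes the letters and is no binding site.

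Some myofibroblast and activation genes rose in KO P10, Ctgf and Myl9 among them. Ctgf, which encodes the matricellular protein CCN2, had 72.6, 63.2 and 44.7 CPM in control P10 and 302, 723 and 367 in KO P10, a log2 change of 2.96 (SE 0.39, adjusted p = 0.000355) in the selected and a log2 change of 2.87 (SE 0.39, adjusted p = 0.000105) in the fibroblast-majority nuclei. It was higher in KO P10 in pooled sub-clusters 1 (63.2 against 302 CPM), 2 (119 against 766), 3 (43.95 against 545) and 4 (83.3 against 442). Sub-cluster 2, of which Ctgf, Eln, Sfrp2 and Itgbl1 are leading genes, made up 8.62 to 12.5% of the fibroblast-majority nuclei of a library in control P10 and 12.8 to 16.8% in KO P10. The 12.8% stands for 5 of 39 nuclei in KO P10 library 2. These leading genes also shaped sub-cluster 2, so that its share and their levels cannot be told apart. Myl9, a regulatory light chain of smooth muscle myosin, had 79.03, 159 and 98.5 CPM in control P10 and 387, 435 and 559 in KO P10, a log2 change of 2.01 (SE 0.30, adjusted p = 0.000799). Acta2, α-smooth muscle actin, had 423, 526 and 478 CPM in control P10 and 1064, 660.3 and 1655 in KO P10, a log2 change of 1.24 (SE 0.32, adjusted p = 0.0286) that was lost without KO P10 library 3 or the first or the third of control P10 (highest adjusted p 0.171). Of 25 tested myofibroblast and activation genes 7 rose (Acta2, Ltbp2, Myl9, Meox1, Lox, Ctgf and Ddah1) and Fap fell, with a median of 0.36. Of 22 in the fibroblast-majority nuclei 4 rose (Acta2, Myl9, Lox and Ctgf) with none lower, and a median of 0.79. Over all genes 2.69% rose and 2.59% fell in the selected nuclei, with a median of -0.000812. In the fibroblast-majority nuclei 0.577% of all genes rose and 0.505% fell. Of 9 tested pericyte and smooth muscle markers Acta2 and Des rose, and the part of such RNA in the Acta2 and Myl9 values was not tested.

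Eln, the elastin gene, had 622, 1235 and 647 CPM in control P10 and 996, 5988 and 4421 in KO P10, a log2 change of 2.18 (SE 0.47, adjusted p = 0.00984) that was lost without control P10 library 3 (adjusted p = 0.0669). KO P10 library 1 lay inside the control range and libraries 2 and 3 were far above it, so the groups overlapped. Of 15 elastic fibre genes Eln and Ltbp2 rose and 0 fell (2 at an unadjusted p under 0.05, 0 by DESeq2). Of 24 collagen processing genes Lox, Plod2, P3h2 and Tgm2 rose and Adamts14 fell. Over all genes 2.69% rose and 2.59% fell. Among the collagens themselves 0 of 10 rose by edgeR (3 at an unadjusted p under 0.05, 0 by DESeq2) and Col5a3 fell, with a median of -0.01. Itgbl1, an integrin beta-like secreted protein gene, had 36.3, 44.1 and 53.8 CPM in control P10 and 43.05, 847 and 167 in KO P10, and its log2 change of 2.92 (SE 0.65, adjusted p = 0.0117) was lost without KO P10 library 2 (adjusted p = 0.112).

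Resting and adventitial fibroblast genes had 6 falls and 2 rises: of 19 tested, Pi16, Cd34, Clec3b, Scara5, Cd248 and Cxcl12 fell and Sfrp2 and Fmo2 rose, with a median of -0.91. Over all genes 2.59% fell and 2.69% rose (0.505% and 0.577% in the fibroblast-majority nuclei). In the fibroblast-majority nuclei Clec3b and Scara5 fell and Sfrp2 and Fmo2 rose among 14, with a median of -0.77. Scara5 had 59.8, 53.6 and 40.5 CPM in control P10 and 16.6, 19.2 and 12.6 in KO P10, a log2 change of -1.65 (SE 0.34, adjusted p = 0.00717) lost without KO P10 library 3 (adjusted p = 0.0510). Pi16 had a log2 change of -1.28 (SE 0.36, adjusted p = 0.0447) that was lost in 8 of 9 fits that left out 1 library (highest adjusted p 0.195). Col6a6, a chain of the microfibrillar type VI collagens, had 252, 118 and 137 CPM in control P10 and 74.4, 31.4 and 48.2 in KO P10, a log2 change of -1.64 (SE 0.32, adjusted p = 0.00527). Pi16, Clec3b, Cd248 and Scara5 are leading genes of sub-cluster 3, as are Cmah and Sema3c. That sub-cluster made up 12.0 to 18.1% of the fibroblast-majority nuclei of a library at P6, 22.5 to 24.5% in control P10 and 12.8 to 17.5% in KO P10, where the 12.8% is 5 of 39 nuclei in library 2. Since those genes also shaped the sub-cluster, its share and their levels cannot be told apart. Within the pooled sub-cluster 3, Cmah held 128 of 227512 UMIs in control P10 and 2 of 67838 in KO P10. The kinase gene Nrk, a fibroblast marker outside the rule, had 399, 298 and 251 CPM in control P10 and 107, 83.8 and 111 in KO P10, a log2 change of -1.63 (SE 0.27, adjusted p = 0.00154), and fell with Fap among the 25 such markers.

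Of 30 TGF-β and BMP genes Smad6, Smad7 and Fstl3 rose and 0 fell (4 fell at an unadjusted p under 0.05, 0 by DESeq2), and only Smad6 passed among 26 in the fibroblast-majority nuclei. Of 27 Wnt and hedgehog genes the secreted modulators Sfrp1, Sfrp2 and Dkk3 rose. Of 34 growth factor genes (PDGF, FGF, IGF and HGF) 0 passed by edgeR, while 3 higher and 5 lower ones had an unadjusted p under 0.05 and DESeq2 called 1. Of 28 genes for vasoactive and lipid signals 5 fell, among them the angiotensin receptor gene Agtr1a. All these lists stand beside 2.69% higher and 2.59% lower over all genes.

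**Figure D4:**
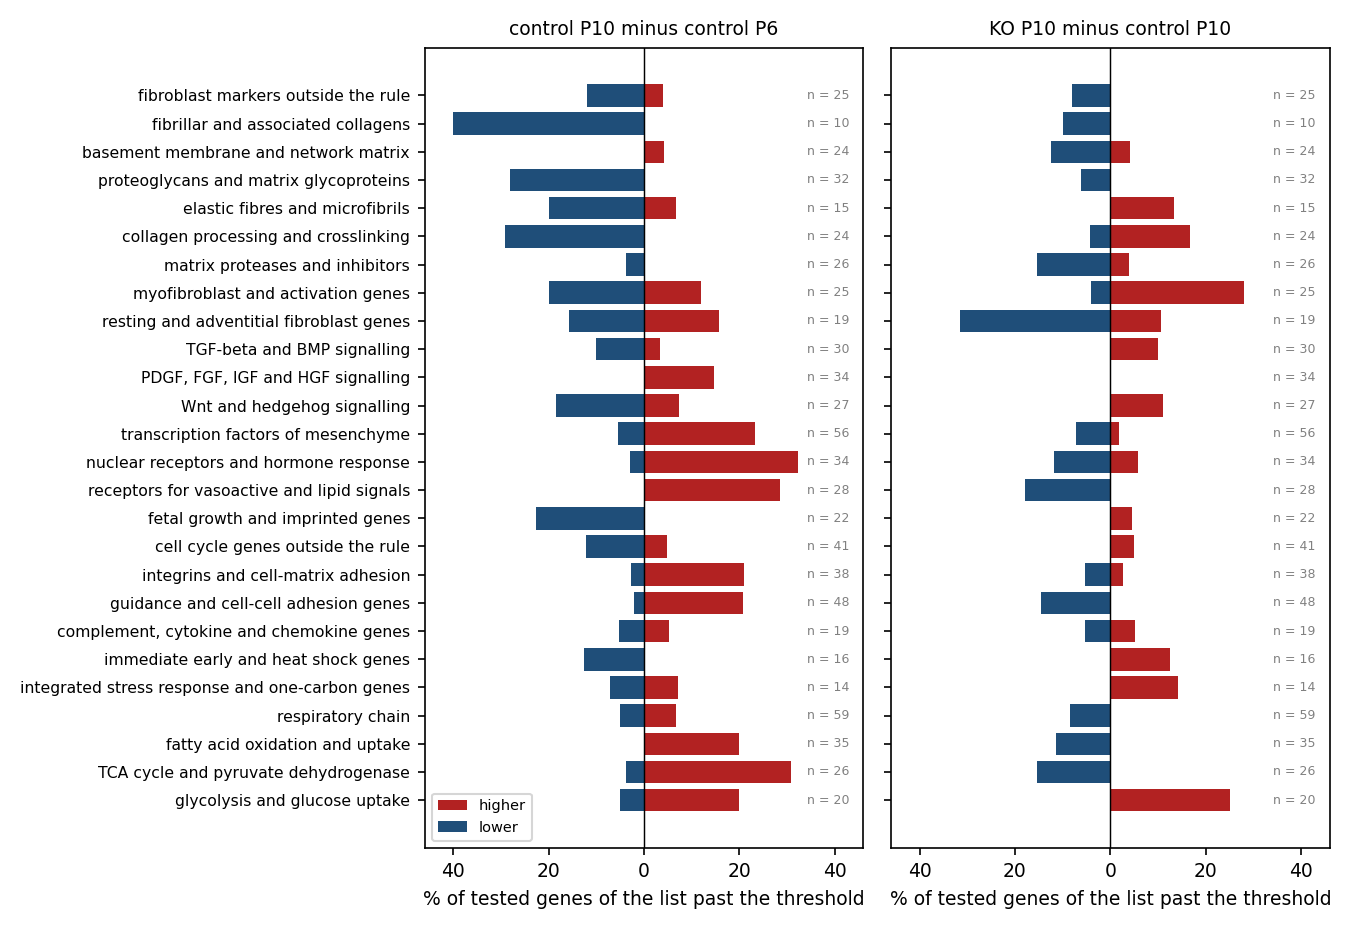
Percentage of the tested genes of each list that passed the edgeR threshold in the selected nuclei, higher to the right (red) and lower to the left (blue), for control P10 minus control P6 and for KO P10 minus control P10; n is the number of genes tested. With age 7 of 24 collagen processing genes fell and 0 rose, and in KO P10 6 of 19 resting and adventitial genes fell and 2 rose. Over all genes 9.05% rose and 8.64% fell with age, and 2.69% rose and 2.59% fell in KO P10.

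Beyond fibroblast-side genes, Nppa, which encodes the atrial natriuretic peptide of cardiomyocytes, stood at 98.3, 779 and 122 CPM in control P10 and 3307, 27712 and 15364 in KO P10, a log2 change of 5.52 (SE 0.81, adjusted p = 0.000691). Acta1 (4.02), Nmrk2 (3.65) and Myl7 (3.57), genes of muscle or atrial myocytes, rose too, and Lrtm1 (-3.95), Itgb6 (-3.15), Slc13a3 (-2.68) and Me3 (-2.32) fell. Nppa kept a log2 change of 5.24 (SE 0.55, adjusted p = 8.81e-07) in the fibroblast-majority nuclei. Of the 18 cardiomyocyte markers 0 passed by edgeR between KO P10 and control P10, with a median of 0.27, 1 had an unadjusted p under 0.05 and DESeq2 called 2. Of 5 tested erythroid markers Hba-a1, Hba-a2 and Hbb-bt rose (2.69% over all genes), with a median of 1.52.

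**Figure D5:**
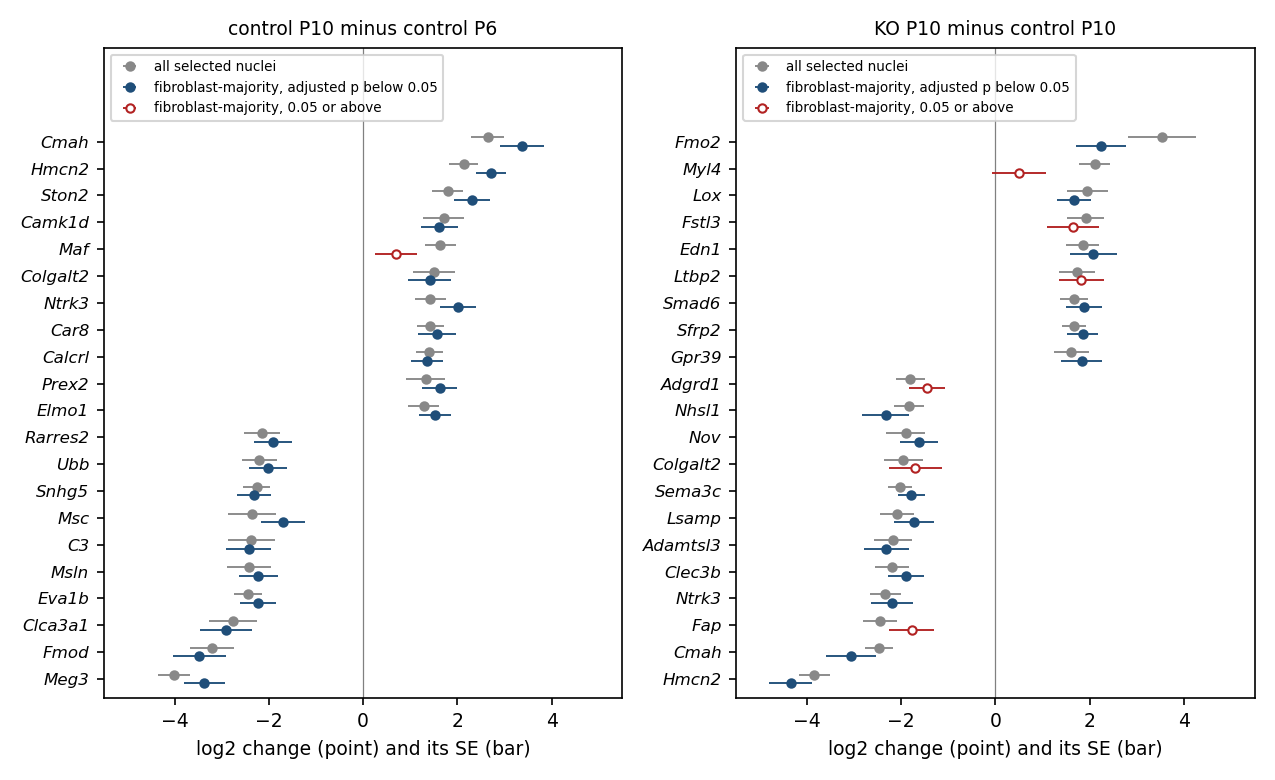
Log2 change (points) and its SE (bars) of the named fibroblast-side genes in all selected nuclei (grey) and in the fibroblast-majority nuclei (blue where the adjusted p was under 0.05, open red otherwise). Both sets share nuclei; Maf with age and Myl4, Fstl3, Ltbp2, Adgrd1, Colgalt2 and Fap in KO P10 are open, and genes too low to test in the fibroblast-majority nuclei are left out.

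The KO P10 difference was compared with that in cardiomyocyte nuclei of the same libraries. Of 11818 genes 44 differed (0.372%), 25 more upward (0.212%) and 19 more downward (0.161%) in the selected nuclei, and leaving out KO P10 library 2 left 5. Hmcn2 fell further than in cardiomyocyte nuclei (-3.53, adjusted p = 0.000574), as did Adamtsl3 (-2.02, adjusted p = 0.00360). Smad6 rose further (1.51, adjusted p = 0.0108). Cmah, Ntrk3, Sema3c, Ctgf, Myl9 and Sfrp2 were not among the 44. Of 26 tested myofibroblast and activation genes and of 19 resting and adventitial ones, 0 changed differently from cardiomyocyte nuclei. The basement membrane collagen gene Col4a4 differed by -2.27 (adjusted p = 1.42e-07), the fibrillin gene Fbn2 by 1.43 (adjusted p = 2.63e-07) and the imprinted gene Mest by -1.46 (adjusted p = 0.00216). Against endothelial nuclei 3 of 7800 genes differed (0.0385%), 1 more upward (0.0128%) and 2 more downward (0.0256%). They were Itgbl1 by 4.23 (SE 0.65, adjusted p = 7.91e-07), Lsamp by -3.27 (SE 0.60, adjusted p = 0.000172) and Cd55 by -9.12 (SE 1.86, adjusted p = 0.00238). Endothelial nuclei were few, with 24, 73 and 62 in the control P10 libraries and 16, 87 and 23 in KO P10. Leaving out KO P10 library 2 left 1 gene. A difference from cardiomyocyte nuclei was not tested separately in the fibroblast-majority nuclei.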

How the data were processed

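The deposited tables hold UMI counts per gene and barcode, with exon and intron reads counted together, 1 table per library; the authors used STAR 2.5.2a and mm10, per the submitters' processing notes, and the counting tool is not given in the sources used here. The counts carry no normalization. Members and gene lists were chosen with earlier results of these data known. UMIs of the selected nuclei were summed per library and fitted with edgeR 4.0.16 (R 4.3.3; filterByExpr, TMM, quasi-likelihood F test, 1 fit of all 9 libraries, Benjamini-Hochberg over all tested genes, threshold 0.05); SE is the log2 change divided by the root of F. Differences between kinds of nuclei were interaction terms with a block for the library. Shares were compared with exact permutation tests over libraries (20 splits). The fibroblast-majority set and the fibroblast-enriched gene set (at least 3 times the cardiomyocyte level) were added after seeing the data.

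Named genes passed the threshold with groups that did not overlap and at least 50 CPM in the higher group: the 12 largest rises and 12 largest falls at 2 or more times the cardiomyocyte level ("fibroblast-side"), then 4 of each among the rest, beside members of 26 gene lists and 11 marker lists. Sub-clusters came from scanpy 1.11.5 (Leiden, resolution 0.6, 20 components, 15 neighbours, 1500 variable genes, seed 1), and a doublet caller's top 5% were removed only as an alternative. Gene positions are from GENCODE vM21 (GRCm38). On simulated counts for 10009 genes, changes were planted only in genes with a mean of at least 50 CPM, 100 genes per fold size. For control P10 against P6 the edgeR step found 37% of those changed 2-fold and 99% of those changed 4-fold, with 11 false calls. For KO P10 against control P10 it found 53% and 100%, with 6. Recovery of changes in genes under 50 CPM was not simulated. Depth was 2608067 to 5769630 UMIs per library. Alternatives were DESeq2 1.42.0, RLE scaling, filters on genes and nuclei, thinning, a term for Xist-rich libraries, leaving out libraries and a replicate block. A few genes of the lists are not reported here by name.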

Additional observations from a re-analysis of the deposited data

Results flagged for a closer look

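The changes of 5 named genes differed between the selected nuclei and the cardiomyocyte nuclei of the same libraries by the interaction term (edgeR). From P6 to control P10, Hmcn2 changed by 2.20 more on the log2 scale in the selected nuclei (SE 0.47, adjusted p = 0.000594), Eva1b by -2.00 (SE 0.57, adjusted p = 0.0180) and Rarres2 by -1.51 (SE 0.49, adjusted p = 0.0493). In KO P10 against control P10, Hmcn2 differed by -3.53 (SE 0.65, adjusted p = 0.000574), Adamtsl3 by -2.02 (SE 0.42, adjusted p = 0.00360) and Smad6 by 1.51 (SE 0.34, adjusted p = 0.0108). Both comparisons use the same control P10 libraries.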

How the results depend on the processing

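For control P10 against P6, where 1771 genes passed, 1021 passed after thinning to 500 UMIs, 102 in nuclei with at most 4 cardiomyocyte UMIs (KO P10 library 2, with 1 such nucleus, left out), 656 in the fibroblast-majority nuclei (792 without KO P10 library 2, 623 without the endocardial-like and epicardial-like sub-clusters) and 103 of the fibroblast-enriched genes (161 without KO P10 library 2); leaving out 1 library gave 754 to 2098. For KO P10 against control P10, where 528 passed, the counts in the same order were 291, 1, 60 (44 and 74) and 81 (44), a term for Xist-rich libraries gave 821, and leaving out 1 library gave 173 to 727. Interaction counts on leaving out 1 library were 215 to 694 and 5 to 101 against cardiomyocyte nuclei, and 2 to 14 and 1 to 3 against endothelial nuclei, the last 5 with RLE scaling. The share of selected nuclei in KO P10 minus control P10 was -0.0208 points with Malat1 of at least 3%, and -3.23 to 8.60 on leaving out 1 library; the share cycling was -0.0439, and -2.94 to 4.53. Log2 changes that changed sign, none of them past the threshold after the change, were those of Klf12 (0.0374), Mmp16 (0.0933) and P3h2 (-0.275) in KO P10 and Acta2 (-0.123), Atp5g3 (-0.00555), Bmpr1a (-0.103) and Palld (-0.0570) with age in nuclei with at most 4 cardiomyocyte UMIs, and of Sox6 with age in the fibroblast-majority nuclei (-0.0575, and -0.0357 without KO P10 library 2). Of 284 named or listed genes that passed, 132 lost the call without control P10 library 3, 107 without control P6 library 2 and 97 without control P6 library 3, and 41 of 283 in DESeq2. With a replicate block, 1905 and 725 genes passed; samples that share a number are not paired by the labels, 4 of 9 same-number pairs correlated above 0.1, and in 7 of 18 comparisons a library correlated best with its own number. The nuclei with at most 4 cardiomyocyte UMIs numbered only 18 to 103 in a control P10 library and 30 and 26 in KO P10 libraries 1 and 3. For the counts and signs the cause was not tested.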

Other observations

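Energy genes are known targets of the ERR proteins in muscle. In the selected nuclei each energy list below passed, in the direction given, at a higher share than all genes, and in the fibroblast-majority nuclei only Cox7a1 and Eno3 passed. In KO P10 against control P10, 5 of 59 respiratory chain genes fell in the selected nuclei (Ndufa1, Ndufa5, Ndufs1, Uqcr11 and Cox7a1; median -0.36) and 1 of 58, the muscle-type subunit gene Cox7a1, in the fibroblast-majority nuclei (median -0.24), beside 2.59% and 0.505% lower over all genes. The selected and the fibroblast-majority nuclei were not tested against each other, and 0 of 60 respiratory chain genes changed differently from cardiomyocyte nuclei. Of 26 genes of the TCA cycle 4 fell (Pdk2, Dlst, Sucla2 and Got2; median -0.49; 0 of 22 in the fibroblast-majority nuclei), and of 35 genes of fatty acid oxidation 4 fell (0 of 23). Of 20 glycolysis genes 5 rose (Eno1, Eno3, Pkm, Ldha and Slc16a3; median 0.52; 2.69% higher over all genes), of which Eno3 passed in the fibroblast-majority nuclei. The metallothionein gene Mt1 had 46.99, 144 and 91.03 CPM in control P10 and 183, 784 and 382 in KO P10, a log2 change of 2.19 (SE 0.44, adjusted p = 0.00613), and the cell-cycle inhibitor gene Cdkn1a had 25.6, 35.99 and 19.03 CPM in control P10 and 74.4, 108 and 86.02 in KO P10, a log2 change of 1.70 (SE 0.27, adjusted p = 0.00142); every KO P10 library was above every control P10 library for both.

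Of 48 guidance and cell adhesion genes 10 rose with age in the selected nuclei and Unc5b fell (9.05% and 8.64% over all genes). In the fibroblast-majority nuclei 10 of 35 rose (5.61% over all genes) and Astn2 fell, among the rises Sema3c, the slit receptor gene Robo1, the netrin gene Ntn4, Cdh13, Pcdh9, Negr1 and Lsamp. In KO P10 7 of 48 fell (2.59% over all genes; Sema3c, Nrp2, Ntn4, Lsamp, Opcml, Tenm4 and Lrrc4c), and Sema3c and Lsamp fell in the fibroblast-majority nuclei. The comparisons share the control P10 libraries.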
